A study of Mus musculus with 6 samples.

Results

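Mitochondrial ribosomal protein genes are the nuclear genes named Mrpl or Mrps followed by a number, and 77 of the 20323 mouse genes with a value in all 6 RNA-seq libraries carry such a name. Of these, 48 are Mrpl genes, named for the large subunit, and 29 are Mrps genes, named for the small subunit. The name decided which genes belong. One more gene of this name, Mrpl36, was blank in all libraries.

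The mitochondrial ribosome, or mitoribosome, sits in the mitochondrial matrix and translates the few messenger RNAs of the mitochondrial genome, all of which encode subunits of the respiratory chain and ATP synthase. Its ribosomal RNAs are transcribed from the mitochondrial genome, while all of its proteins are encoded in the nucleus, made in the cytosol and imported. Many of these proteins have a bacterial homologue, and others were added after the bacterial ancestor of mitochondria was taken up. In brain, cells that rely on oxidative phosphorylation need this ribosome to keep their respiratory chain supplied.

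The RNA came from 3 mice given neuregulin 1 beta 1 (Nrg-1β1), a peptide ligand of ErbB receptor tyrosine kinases, and from 3 mice given its vehicle, 0.1% bovine serum albumin in saline. All 6 mice had the genotype Nestin-CreERT2;Rosa26-mGFP, in which a Cre recombinase that tamoxifen activates is driven by the Nestin promoter and switches on membrane GFP, and all 6 first ate a diet with cuprizone, a toxin that strips myelin, for 10 weeks and then had 4 weeks of recovery. The Nrg-1β1 dose was 60 per kg per day, in µg by the series description and in g by the sample labels, so its unit is uncertain. GFP-positive cells were pulled from the hippocampus with magnetic beads, each library being 1 mouse, and are labelled neural progenitor cells. The age of the mice is not given in the labels used here. The reporter stays on in the descendants of a recombined cell, so the sorted population can hold more than progenitors.

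The libraries differed in ways that bear on all values below. Depth, recovered as whole reads from the deposited values, was 567073, 662909 and 1327003 reads in the Nrg-1β1 libraries, against 72953034, 1075813 and 47076006 reads in the vehicle libraries, so depth moved partly with the group. Marker genes moved with the group too. All 12 endothelial markers were lower in Nrg-1β1 libraries, 9 of them at an adjusted p under 0.05 (limma), where 0.625% of all genes were. Their summed normalized counts were 129 to 158 in Nrg-1β1 libraries and 691 to 3460 in vehicle libraries. All 10 microglia markers were lower (2590 to 3390 and 7170 to 12100), 7 of them past that threshold. All 7 choroid plexus markers were lower (128 to 204 and 1530 to 4880), 4 of them past it, and Kcne2 among the 7 had no read in the Nrg-1β1 libraries. None of the neuron, astrocyte, oligodendrocyte or progenitor markers passed. Neuron markers summed to 6610 to 9140 in Nrg-1β1 libraries and 2610 to 4970 in vehicle libraries, without overlap. Of the 10 neuron markers, 4 had an unadjusted p under 0.05 (limma), against 13% of all genes. Astrocyte markers summed to 47900 to 48500 in Nrg-1β1 libraries and 26200 to 38300 in vehicle libraries, also without overlap, with 5 of 9 at an unadjusted p under 0.05 (limma), and oligodendrocyte markers to 110000 to 142000 and 93800 to 191000. The progenitor and neuroblast markers summed to only 945 to 1580 in Nrg-1β1 libraries and 830 to 1080 in vehicle libraries, so differentiated glial transcripts outweighed those of the labelled cell type in all 6 libraries. Their differences were 5 positive and 5 negative, with 2 of 10 at an unadjusted p under 0.05 (limma). Nes had normalized counts of 31, 46 and 27.3 in the Nrg-1β1 libraries and 91.9, 71 and 234 in the vehicle libraries, without overlap (difference -1.65, limma adjusted p = 0.0582). Sox2 had 439, 495 and 693 against 365, 531 and 290, with overlap (difference 0.47). The female transcript Xist had 2, 3 and 1 reads in the Nrg-1β1 libraries and 3255, 216 and 1045 reads in the vehicle libraries, and the Y-linked Ddx3y had 29, 22 and 15 reads against 82, 1 and 1994 reads. As normalized counts, which allow for depth, Xist had 10.3, 15.3 and 3.04 in the Nrg-1β1 libraries and 197, 667 and 63.2 in the vehicle libraries. Ddx3y had 150, 112 and 45.6 in the Nrg-1β1 libraries and 4.96, 3.09 and 121 in the vehicle libraries. On this scale vehicle library 3 alone was high in both transcripts. In each other library the lower of the pair was at most 15.3. The part of depth, cell types and sex in the values below was not tested, and in bulk RNA fewer cells of a type cannot be told apart from less RNA per cell.

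Promoters of a few of these genes show what their regulatory DNA looks like. The stretches below run from 100 bases before to 20 bases after the annotated start in RefSeq (build GRCm38.p6), written along the strand of the gene. Capitals mark exact matches, on either strand, to the core of ETS factor sites (CCGGAAG or CTTCCGG), to the consensus palindrome of nuclear respiratory factor 1 (NRF1), or to the core of YY1 sites (AAGATGGC or GCCATCTT). Mrpl52, Mrpl48 and Mrpl33 are shown because their differences between groups were the largest, Mrpl9 because it holds an NRF1 match, and Mrps18a because it holds an ETS and a YY1 match. Mrpl48 has 4 windows in the table, and the one shown was picked because it holds a match.
Mrpl52, chr14:54426809-54426928, plus strand: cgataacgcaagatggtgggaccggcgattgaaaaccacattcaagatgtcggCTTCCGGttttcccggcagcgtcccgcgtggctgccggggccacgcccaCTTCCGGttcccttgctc
Mrpl48, chr7:100583111-100583230, minus strand: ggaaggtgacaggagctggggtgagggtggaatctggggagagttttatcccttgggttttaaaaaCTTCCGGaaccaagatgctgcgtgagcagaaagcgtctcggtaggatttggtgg
Mrpl33, chr5:31613851-31613970, plus strand: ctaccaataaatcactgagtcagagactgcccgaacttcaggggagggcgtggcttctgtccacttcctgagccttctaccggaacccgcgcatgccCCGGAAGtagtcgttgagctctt
Mrpl9, chr3:94443236-94443355, plus strand: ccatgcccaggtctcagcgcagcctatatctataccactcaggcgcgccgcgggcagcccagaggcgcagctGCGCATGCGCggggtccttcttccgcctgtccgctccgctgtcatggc
Mrps18a, chr17:46110904-46111023, plus strand: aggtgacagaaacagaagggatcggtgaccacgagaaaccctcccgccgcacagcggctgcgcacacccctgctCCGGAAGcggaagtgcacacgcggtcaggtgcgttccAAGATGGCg

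The promoter table held windows of 300 bases, 250 before and 50 after a start, for 68 of the 77 genes. A gene with several windows was counted if any of them held the match, and the number of windows was not matched between sets. An ETS match lay in a window of 26 of these 68 (38.2%), against 9.93% of all 27025 genes in the table and 12.9% of its 17492 protein-coding genes. Among those 26 genes, 22 had a match within 50 bases of a start (84.6%), against 64.5% of the protein-coding genes with a match. A YY1 match was present in 11 of 68 (16.2%), against 3.57% of protein-coding genes, and it overlapped an ETS match in 0 of them. The NRF1 palindrome occurred in 3 of 68 (4.41%), Mrpl9, Mrpl32 and Mrpl39, against 1.47% of protein-coding genes. Of the motifs of more general promoters, TATAAA or TTTATA was in 5 of 68 (7.35%, against 14.8% of protein-coding genes) and CCAAT or ATTGG in 26 of 68 (38.2%, against 42.3%). These are letter matches and not measured binding. The Mrpl and Mrps genes with an ETS match had a median log2 difference between Nrg-1β1 and vehicle of 0.03, and those without one 0.01.

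Some mitochondrial ribosomal protein genes start back to back with another gene. For 24 of the 68 (35.3%) a window overlapped a window of another gene on the opposite strand, against 12.5% of protein-coding genes. In one case both neighbours encode mitoribosomal proteins. Mrps11, of the small subunit, and Mrpl46, of the large subunit, start 41 bases apart, and the whole stretch between the starts is shown along the strand of Mrps11, with no match in it:
Mrps11 to Mrpl46, chr7:78783090-78783130, plus strand: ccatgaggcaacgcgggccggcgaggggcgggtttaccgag
Mrps11 had log2 values of 4.29, 3.83 and 4.66 in the Nrg-1β1 libraries and 4.65, 4.84 and 4.33 in the vehicle libraries, and Mrpl46 had 4.90, 5.78 and 4.26 against 5.57, 5.36 and 4.77. For both genes the groups overlapped, with differences of -0.35 and -0.25. Over 23 such pairs with a value for both genes, the sign of the difference was shared in 10, and 0 partner genes passed the test. Over all genes 1.06% passed, so 23 genes would hold few calls in any case.

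The comparison asks whether Nrg-1β1 given during recovery from demyelination moved these genes. All values are on the deposited scale, read as log2(normalized count + 4), and a difference is the Nrg-1β1 mean minus the vehicle mean, with a limma test fitted over all 20323 genes and Benjamini-Hochberg adjustment at 0.05. The added 4 shrinks the differences of genes with few reads. In this test 0 of the 48 Mrpl genes and 0 of the 29 Mrps genes passed, where 1.06% of all genes did (0.438% higher and 0.625% lower in Nrg-1β1). At an unadjusted p under 0.05 lay 4 of the 77 (5.19%), against 13% of all genes. When limma-voom was run on recovered reads, 0 of the 27 with at least 50 normalized counts passed. That fit called only 1 gene higher and 0 lower among all 6731 genes tested, so its 0 says little about these genes. The 3 Nrg-1β1 libraries lay all above the 3 vehicle libraries for 7 of the 77, against 7.37% of all genes, and all below for 3, against 10.4% of all genes. Both directions together gave 10 of 77 (13%), against 17.7% of all genes. The Mrpl genes had a median difference of 0.00, with 24 positive and 24 negative. The Mrps genes had a median of 0.12, with 16 positive and 13 negative, and all genes had a median of 0.03. Genes whose mean level lay in the same range as the mitoribosomal genes, 10191 in number, had a median of -0.16, and 19.2% of them did not overlap between groups. Their level within that range was not matched, since their library medians were 4.61 to 4.94, against 5.01 to 5.75 for the mitoribosomal genes.

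**Figure D1:**
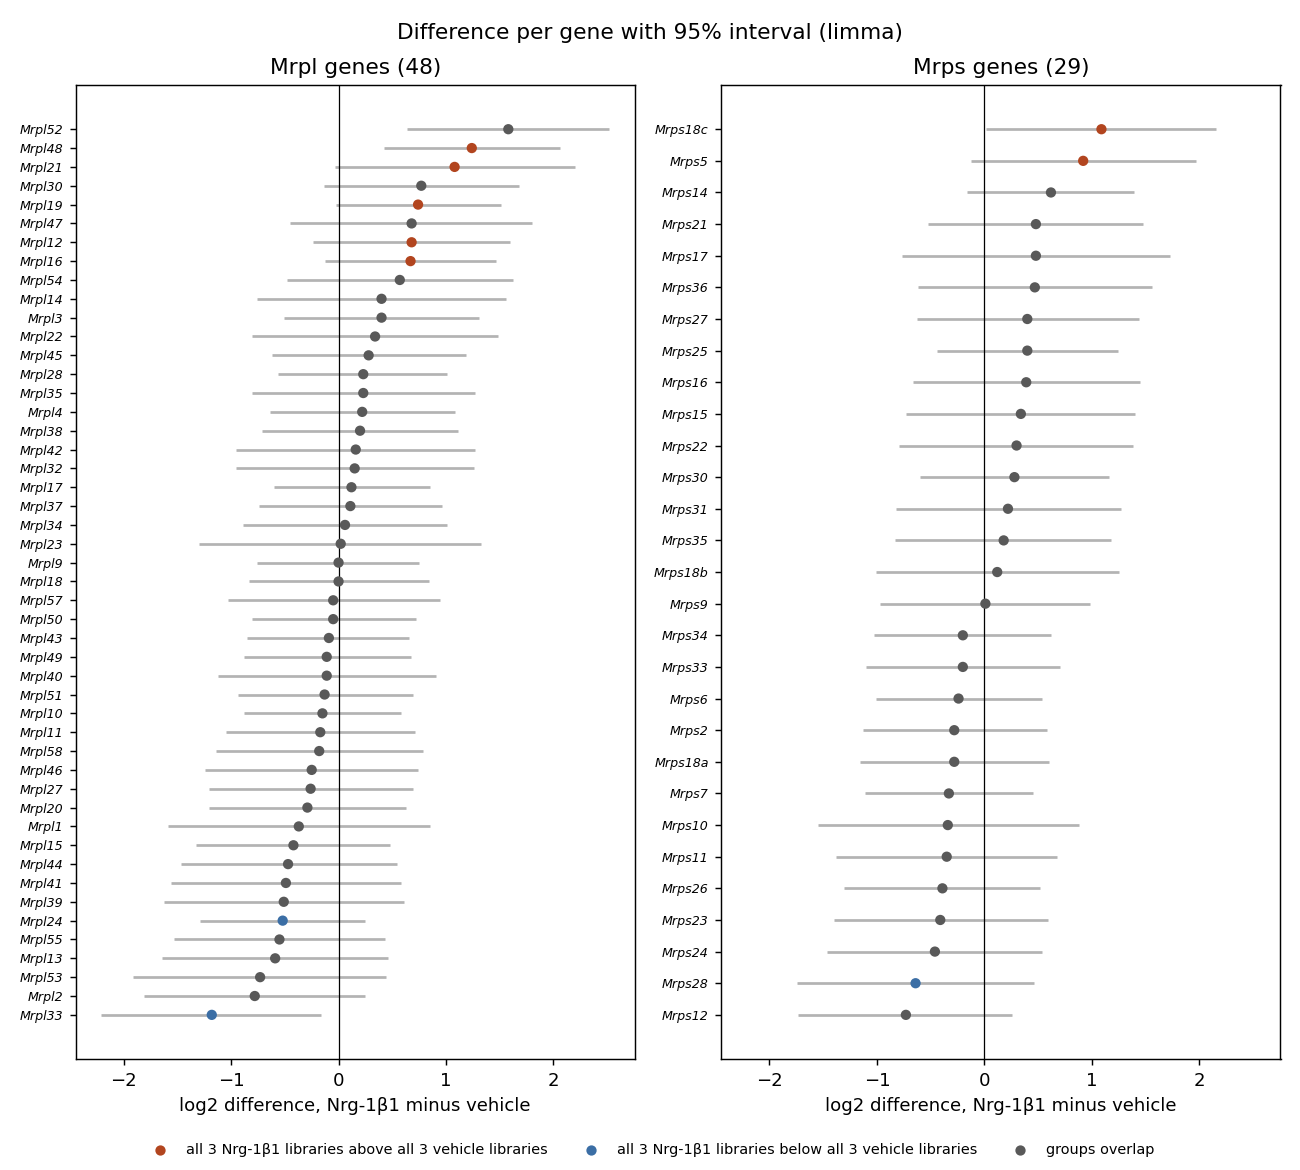
Log2 difference of each of the 48 Mrpl genes (left) and 29 Mrps genes (right), Nrg-1β1 minus vehicle, as a point with its 95% limma interval as a bar. The points of the Mrpl genes run from -1.18 (Mrpl33) to 1.58 (Mrpl52) and those of the Mrps genes from -0.73 (Mrps12) to 1.09 (Mrps18c), with 24 Mrpl and 16 Mrps genes above 0.

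The width of the intervals sets how far these counts of 0 reach. The median half-width of the 95% interval was 0.98 on the log2 scale, against 0.89 over all genes. For 10 of the 77 genes the whole interval lay within 1 log2 unit of 0, a 2-fold change on this scale, and for 53 it lay within 1.5. A gene of this group had a median of 6, 6 and 14 reads in the Nrg-1β1 libraries and of 822, 11 and 468 reads in the vehicle libraries. Of the 77 genes, 59, 56 and 23 had fewer than 10 reads in the Nrg-1β1 libraries, against 0, 34 and 0 in the vehicle libraries. A count of 6 reads carries an exact Poisson interval of 2.2 to 13.1 reads, which covers counting error only. With intervals of this width, a 2-fold change on this scale was not excluded for 67 of the 77 genes, and the part of depth in that width was not tested.

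Taken as a share of the library, the mitoribosomal protein genes took 0.0989%, 0.0846% and 0.0974% of reads in the Nrg-1β1 libraries, against 0.0937%, 0.0828% and 0.0801% in the vehicle libraries. The groups overlapped, and the means were 0.0937% ± 0.00786 in Nrg-1β1 and 0.0855% ± 0.0072 in vehicle (SD, n = 3 each). Of the reads outside the mitochondrial genome they took 0.125%, 0.121% and 0.119% in the Nrg-1β1 libraries and 0.178%, 0.115% and 0.117% in the vehicle libraries. On this measure vehicle library 1 stood above the other 5, and in that library transcripts of the mitochondrial genome made up 47.4% of reads, against 18.4% to 31.3% in the other 5. The balance between subunits overlapped between groups, since Mrps genes held 31%, 32.1% and 32% of the mitoribosomal reads in the Nrg-1β1 libraries and 33.7%, 31.2% and 33.8% in the vehicle libraries.

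**Figure D2:**
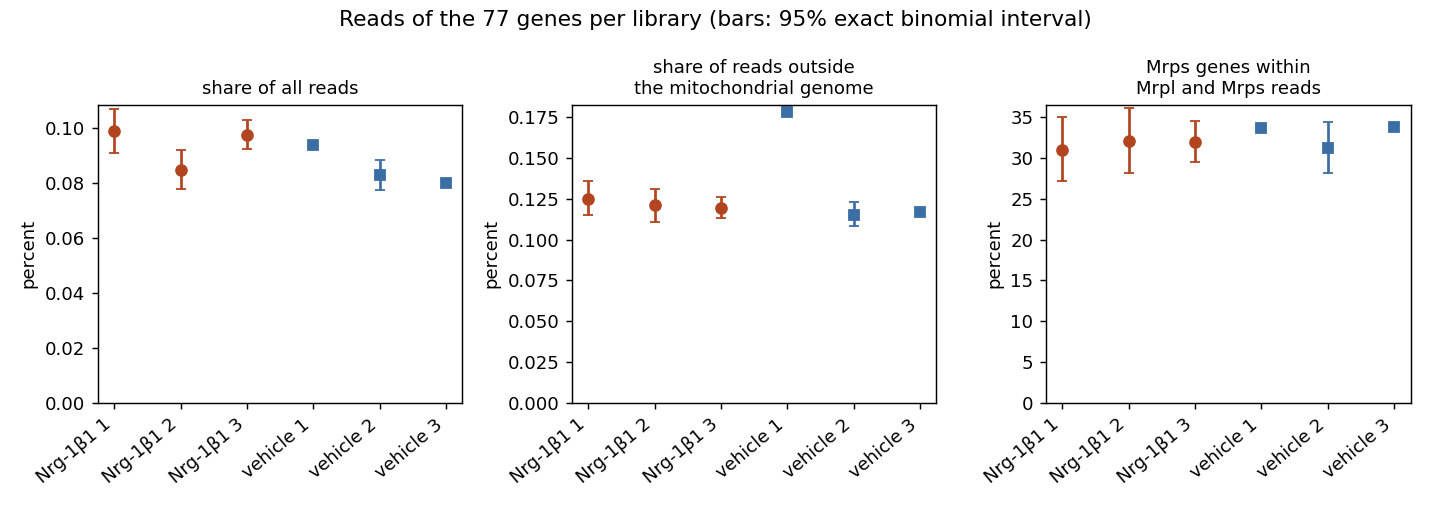
Reads of the 77 genes as a percent of all reads (left), as a percent of reads outside the mitochondrial genome (middle), and the percent of their reads that fall on Mrps genes (right), 1 point per library with its 95% exact binomial interval. In the left panel the 3 Nrg-1β1 libraries (0.0846% to 0.0989%) overlap the 3 vehicle libraries (0.0801% to 0.0937%), and in the middle panel vehicle library 1 stands alone at 0.178%.

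Within the large subunit, the most positive differences belonged to a pair of genes for mitochondria-specific proteins. Mrpl52 encodes a large subunit protein with no bacterial counterpart. It had log2 values of 6.67, 7.74 and 6.15 in the Nrg-1β1 libraries (19, 41 and 22 reads), against 6.15, 4.84 and 4.82 in the vehicle libraries (1109, 8 and 400 reads). Nrg-1β1 library 2 was the highest of the 6, and the groups met at 6.15, where Nrg-1β1 library 3 and vehicle library 1 were level. The difference was 1.58 ± 0.45 (SE, 95% interval 0.64 to 2.52), and it did not pass over all genes (limma adjusted p = 0.0925, unadjusted p = 0.0023). In the fit with the replicate number as a block it did (limma adjusted p = 0.0105), though the values gave no sign that these numbers pair the libraries.

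Mrpl48, likewise without a bacterial counterpart, had log2 values of 6.75, 6.42 and 6.57 in the Nrg-1β1 libraries (20, 16 and 30 reads), against 5.47, 5.97 and 4.58 in the vehicle libraries (668, 19 and 329 reads). The Nrg-1β1 libraries lay close together and above all 3 vehicle libraries. Its difference was 1.24 ± 0.39 (SE, 95% interval 0.42 to 2.06) and did not pass (limma adjusted p = 0.137). Mrpl48 and Rab6a, a GTPase gene of Golgi traffic, have overlapping starts on opposite strands in RefSeq, at a start of Mrpl48 other than that of the stretch printed above, and without a stated strand setting their reads there cannot be told apart. Rab6a itself had a difference of 0.88 without passing (limma adjusted p = 0.146).

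Mrpl33, a short protein with a bacterial homologue, had the most negative difference of the 77. Its log2 values were 4.62, 4.27 and 5.10 in the Nrg-1β1 libraries and 6.97, 5.25 and 5.33 in the vehicle libraries. Vehicle library 1 was far above the rest, and the other vehicle libraries lay just above the highest Nrg-1β1 library. The difference was -1.18 ± 0.49 (SE, 95% interval -2.21 to -0.16) and did not pass (limma adjusted p = 0.289).

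**Figure D3:**
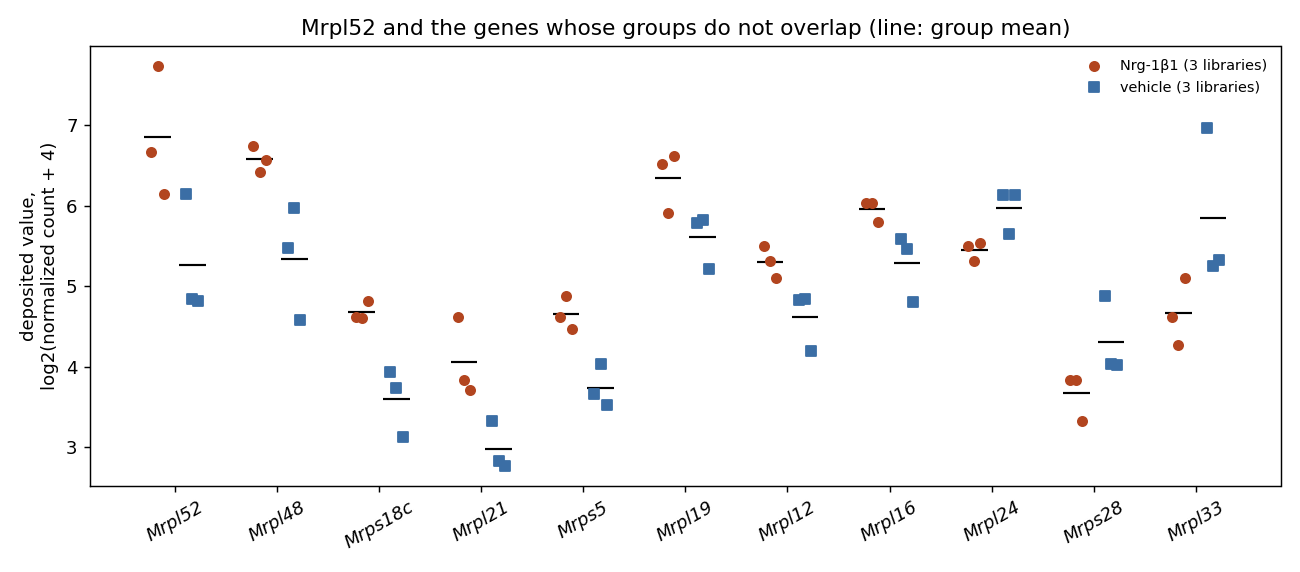
Log2 values in each library, Nrg-1β1 (circles) left of vehicle (squares), with a line at each group mean, for Mrpl52 and for the 10 genes whose groups do not overlap. The Mrpl48 circles sit at 6.42 to 6.75 above squares at 4.58 to 5.97, and for Mrpl33 a single vehicle library stands apart at 6.97.

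The other large subunit genes whose libraries did not overlap between groups all have bacterial homologues. Mrpl21 had 4.62, 3.83 and 3.71 in the Nrg-1β1 libraries and 3.32, 2.83 and 2.77 in the vehicle libraries, a difference of 1.08 (limma adjusted p = 0.403). These values rest on 4, 2 and 3 reads in the Nrg-1β1 libraries and on 1 read in vehicle library 2. Mrpl19 had 6.52, 5.91 and 6.62 in the Nrg-1β1 libraries, against 5.79, 5.82 and 5.21 in the vehicle libraries. Its difference was 0.74 (limma adjusted p = 0.403). Mrpl12, whose protein forms the flexible stalk that recruits translation factors, had 5.50, 5.31 and 5.10 in the Nrg-1β1 libraries and 4.83, 4.84 and 4.20 in the vehicle libraries, a difference of 0.68 (limma adjusted p = 0.55). Mrpl16, next to the peptidyl transferase centre in bacteria, had 6.04, 6.03 and 5.80 in the Nrg-1β1 libraries and 5.59, 5.46 and 4.81 in the vehicle libraries, a difference of 0.67. Mrpl24, which in bacteria starts the assembly of the large subunit, went the other way, with 5.50, 5.31 and 5.54 in the Nrg-1β1 libraries and 6.13, 5.65 and 6.13 in the vehicle libraries. Its difference was -0.52 (limma adjusted p = 0.605).

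Among well-read large subunit genes, those with at least 50 normalized counts on average, Mrpl30 came next after Mrpl52 and Mrpl48 among the positive differences, at 0.77. Its Nrg-1β1 libraries spread widely, at 5.33, 6.14 and 6.70, and overlapped the vehicle libraries at 5.83, 5.36 and 4.68. The most negative well-read gene was Mrpl13, at -0.59, with 5.13, 4.27 and 6.66 in the Nrg-1β1 libraries and 6.42, 5.90 and 5.52 in the vehicle libraries. Nrg-1β1 library 3 was the highest of all 6 libraries and Nrg-1β1 library 2 the lowest, so the groups overlapped fully. Mrpl10, which anchors the stalk, Mrpl51 and Mrpl49 differed by -0.15, -0.13 and -0.11.

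By mean log2 value, which takes no account of transcript length, Mrpl17, Mrpl9 and Mrpl10 headed the large subunit. Mrpl17 had 6.15, 6.58 and 6.97 in the Nrg-1β1 libraries and 6.91, 6.34 and 6.10 in the vehicle libraries, and its difference was 0.12 (95% interval -0.60 to 0.85). Mrpl9 had 5.80, 6.42 and 6.94 in the Nrg-1β1 libraries and 6.75, 6.17 and 6.25 in the vehicle libraries, and its difference was 0.00 (95% interval -0.76 to 0.75). For both genes the interval lay within 1 log2 unit of 0, so a 2-fold change on this scale lay outside it. At the low end, Mrpl22, which lines the exit tunnel for the growing chain in bacteria, had 4, 2 and 2 reads in the Nrg-1β1 libraries and 172, 3 and 86 reads in the vehicle libraries. Its difference of 0.34 had an interval of -0.81 to 1.48.

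In the small subunit, Mrps18c and Mrps5 had the most positive differences. Mrps18c, 1 of 3 nuclear copies related to bacterial protein S18, had 4.62, 4.61 and 4.82 in the Nrg-1β1 libraries (4, 4 and 8 reads), against 3.93, 3.73 and 3.12 in the vehicle libraries (185, 3 and 78 reads). The groups did not overlap, and the difference of 1.09 ± 0.51 (SE, 95% interval 0.02 to 2.16) did not pass (limma adjusted p = 0.371). Mrps5, whose bacterial homologue bears on decoding accuracy, had 4.62, 4.88 and 4.47 in the Nrg-1β1 libraries and 3.66, 4.03 and 3.52 in the vehicle libraries. It differed by 0.92 (limma adjusted p = 0.46), without overlap. Mrps28 was the small subunit gene whose Nrg-1β1 libraries all lay below the vehicle libraries, at 3.84, 3.83 and 3.33 (2 reads in each) against 4.88, 4.03 and 4.02, a difference of -0.64 (limma adjusted p = 0.672).

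The 3 genes named Mrps18 go to different places in the ribosome, and their differences had no common sign. The Mrps18c protein takes the place of bacterial S18 in the small subunit, Mrps18b sits elsewhere in the small subunit, and Mrps18a belongs to the large subunit in spite of its name. Mrps18a had 4.90, 5.64 and 5.88 in the Nrg-1β1 libraries and 6.38, 5.25 and 5.63 in the vehicle libraries, a difference of -0.28 (limma adjusted p = 0.774). Mrps18b was the least read of all 77 genes, with 0, 2 and 1 reads in the Nrg-1β1 libraries and 74, 0 and 87 reads in the vehicle libraries. Its difference of 0.12 (95% interval -1.01 to 1.25) therefore rests on almost no reads in 4 of the 6 libraries. The intervals of all 3 genes overlap, and the differences between them were not tested. The signs of Mrps18a and Mrps18b turned when single libraries were left out.

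A pair of further names also mislead. Mrps30 belongs to the large subunit, and had 5.13, 5.49 and 5.23 in the Nrg-1β1 libraries and 5.33, 4.68 and 4.99 in the vehicle libraries, a difference of 0.28. Mrps36 is now regarded as a component of the 2-oxoglutarate dehydrogenase complex and not of the ribosome, and had 4.29, 4.27 and 4.26 in the Nrg-1β1 libraries and 4.34, 3.73 and 3.34 in the vehicle libraries, a difference of 0.47. Both overlapped between groups. With the genes sorted by the place of their protein, the 50 large subunit genes had a median difference of 0.00, with 25 positive and 25 negative. The 26 small subunit genes had a median of 0.06, with 14 positive and 12 negative. Split further, the median was 0.06 for the 29 large subunit proteins with a bacterial homologue and -0.09 for the 21 without one. In the small subunit it was -0.12 for 16 proteins with a homologue and 0.15 for 10 without. In this split Mrps18a and Mrps18b were counted as without a homologue, although both are related to bacterial S18.

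Among well-read small subunit genes, Mrps14 had the most positive difference, 0.62, with 6.60, 6.14 and 6.27 in the Nrg-1β1 libraries and 6.19, 5.82 and 5.14 in the vehicle libraries. Only vehicle library 1 reached into the Nrg-1β1 range. Mrps21 and Mrps25 followed at 0.48 and 0.40, both with overlap. Mrps15, which binds ribosomal RNA early in bacterial assembly, differed by 0.34, and Nrg-1β1 library 3 alone carried that value, with 5.50, 5.11 and 7.49 in the Nrg-1β1 libraries and 5.56, 6.29 and 5.26 in the vehicle libraries. Without Nrg-1β1 library 3 the difference of Mrps15 was -0.39. On the negative side were Mrps24 at -0.46, Mrps23 at -0.41, Mrps7 at -0.33 and Mrps6 at -0.24, all with overlap. Mrps24 had 4.62, 5.49 and 6.15 in the Nrg-1β1 libraries and 6.86, 5.25 and 5.52 in the vehicle libraries, so that vehicle library 1 alone lay above the Nrg-1β1 range. Mrps12, part of the decoding centre, had the most negative value of the small subunit, -0.73 (95% interval -1.73 to 0.26). At the low end with Mrps18b stood Mrps17, with 5, 2 and 1 reads in the Nrg-1β1 libraries and 123, 1 and 157 reads in the vehicle libraries.

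Levels between genes were compared per kilobase of the principal transcript in the GENCODE annotation, as mean normalized counts over the 6 libraries. Mrpl52 stood at 196, followed by Mrps21 at 111, Mrpl33 at 89.9, Mrpl28 at 75.1, Mrpl34 at 73.6 and Mrps15 at 71.1. The order at the top differed between the group means. The mean per kilobase of Mrpl52 was 299 in Nrg-1β1 libraries, the highest of the 77, and 92.5 in vehicle libraries. There it came after Mrpl33, which had 46.3 in Nrg-1β1 libraries and 134 in vehicle libraries, and after Mrps21, which had 126 in Nrg-1β1 libraries and 95.9 in vehicle libraries. These vehicle means lean on vehicle library 1. The normalized counts in the vehicle libraries were 121, 34 and 36.3 for Mrpl33 and 87.7, 30.9 and 21.8 for Mrps21. For Mrpl52 they were 67.1, 24.7 and 24.2. Mrpl33 had only 4, 3 and 10 reads in the Nrg-1β1 libraries. At the other end were Mrps17 at 1.95, Mrps5 at 3.45, Mrps18b at 3.55 and Mrpl47 at 5.51. The genes whose protein products share 1 ribosome thus spanned a wide range of transcript levels. A long annotated 3′ end that these cells do not use lowers this value, and transcript use was not measured. The rank order of the 77 genes was shared between libraries to a varying degree, with Spearman correlations of 0.47 to 0.84 over the 15 pairs of libraries, highest between the deep vehicle libraries 1 and 3.

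**Figure D4:**
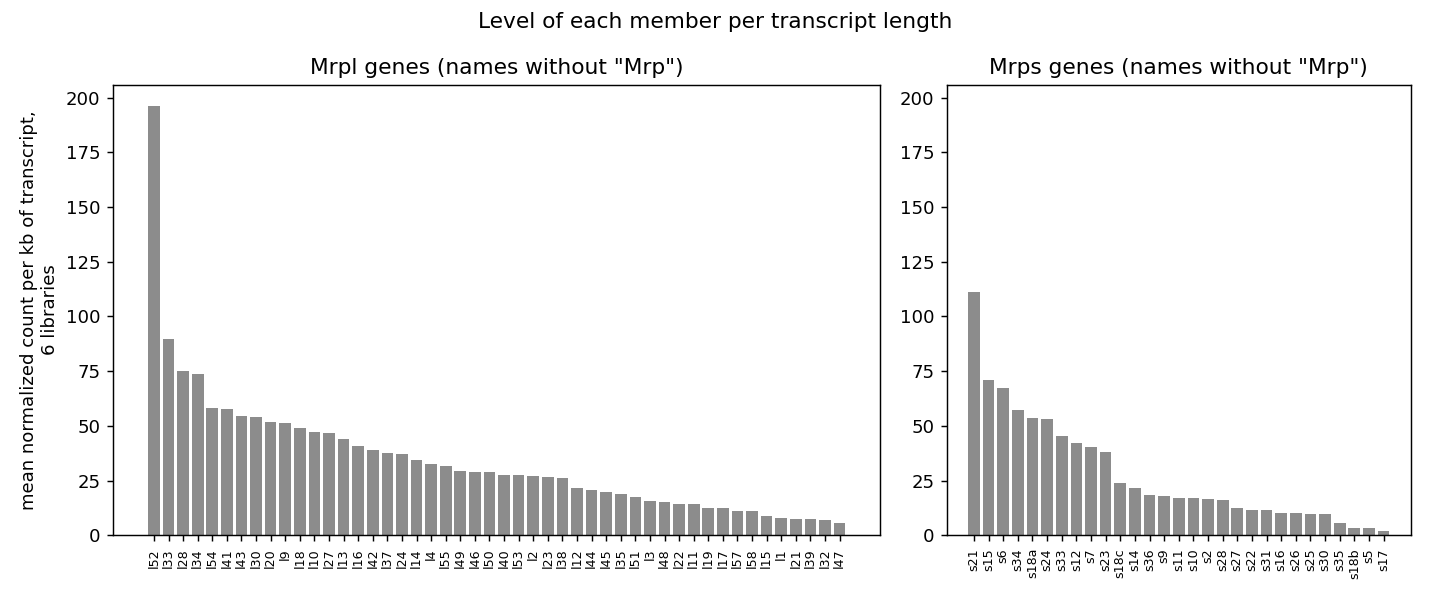
Mean normalized count per kilobase of annotated transcript over the 6 libraries, 1 bar per gene, for Mrpl genes (left) and Mrps genes (right) in falling order. Mrpl52 stands at 196 and Mrps21 at 111, and the lowest bar, Mrps17, is at 1.95, with both groups pooled in each bar.

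The level of these genes as a group varied between libraries of the same treatment. With the mean of a gene over all libraries subtracted from its values, the median over Mrpl genes was -0.12, -0.09 and 0.24 in the Nrg-1β1 libraries and 0.43, -0.12 and -0.37 in the vehicle libraries. Over Mrps genes it was -0.12, 0.05 and 0.22 in the Nrg-1β1 libraries and 0.30, -0.26 and -0.15 in the vehicle libraries. Vehicle library 1 was thus the highest for both subunits, while its median over all genes was -0.05. It was the highest of the 6 libraries for 31 of the 77 genes, against 12.3% of all genes, and the lowest for 0. Vehicle library 3 was the lowest for 25 of the 77.

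Short genes lay furthest above their own mean in vehicle library 1. The 26 mitoribosomal genes with the shortest coding sequence, 195 to 480 bases, had a median of 0.57 there, against 0.43 for the middle 25 and 0.24 for the longest 26. Over all well-read genes the same length classes had 0.34, 0.18 and 0.05 in that library. Between groups, the same classes had median differences of -0.02, -0.17 and 0.19 for the mitoribosomal genes. Without vehicle library 1 the medians were 0.19 for Mrpl and 0.27 for Mrps genes, with 54 of 77 differences positive, and 0 passed.

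**Figure D5:**
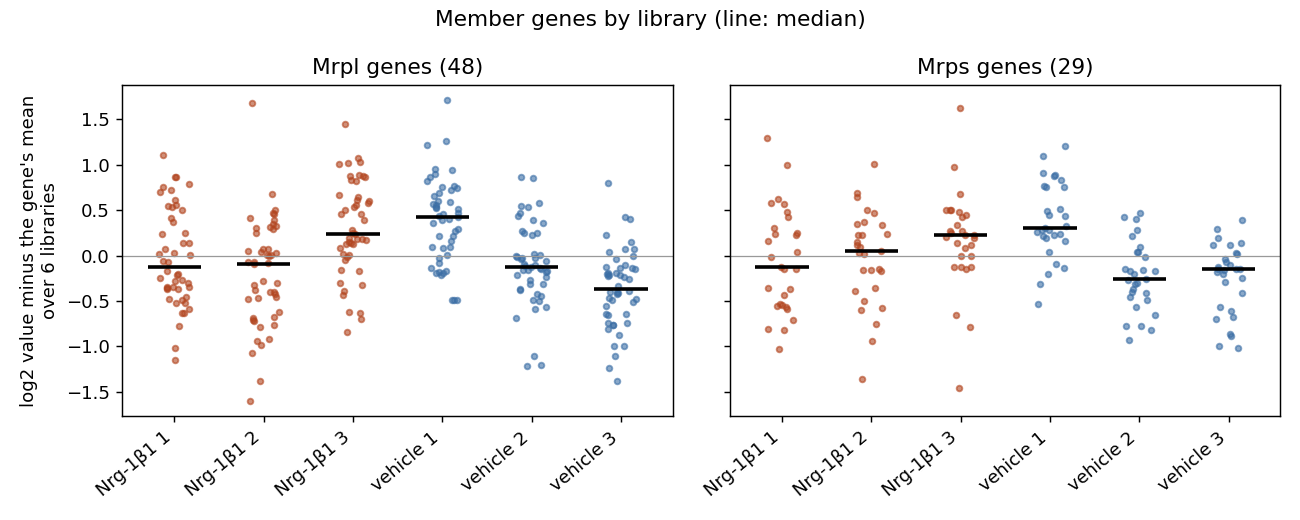
Log2 value of each gene minus its own mean over the 6 libraries, 1 point per gene, for the 48 Mrpl genes (left) and 29 Mrps genes (right), with a line at each library's median. Vehicle library 1 has the highest medians (0.43 and 0.30), and vehicle library 3 the lowest Mrpl median (-0.37).

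Another 5 measured genes encode mitoribosomal proteins but fall outside the naming pattern, and 0 of them passed or had an unadjusted p under 0.05 (limma). Over all genes these shares were 1.06% and 13%, so 5 genes would hold few of either in any case. Dap3, a GTP-binding protein of the small subunit, had 5.80, 7.10 and 6.90 in the Nrg-1β1 libraries and 6.60, 6.17 and 6.22 in the vehicle libraries, a difference of 0.27. Ptcd3, a pentatricopeptide repeat protein of the small subunit, differed by 0.29 and Aurkaip1 by 0.22. Gadd45gip1, of the large subunit, differed by -0.35. Chchd1 had the widest interval of these, -2.41 to 0.56, with 0, 4 and 15 reads in the Nrg-1β1 libraries and 822, 7 and 329 reads in the vehicle libraries.

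The ribosomal RNAs that these proteins bind were spread more widely. The SE of the difference was 0.88 for mt-Rnr1 and 1.03 for mt-Rnr2 (limma), against a median of 0.47 over the 77 genes. The small subunit RNA mt-Rnr1 had 14.58, 15.71 and 16.08 in the Nrg-1β1 libraries, against 17.33, 15.72 and 15.95 in the vehicle libraries. The large subunit RNA mt-Rnr2 had 15.26, 16.43 and 16.58 in the Nrg-1β1 libraries, against 18.09, 16.12 and 16.59 in the vehicle libraries. For both, vehicle library 1 was the highest and Nrg-1β1 library 1 the lowest, and the differences of -0.88 and -0.85 did not pass (limma adjusted p = 0.709 and 0.737).

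Genes that build, load or feed the mitoribosome gave 0 calls in each of 4 lists (limma), where 1.06% of all genes were called, so that lists of 12 to 24 genes would hold few calls in any case. Outside the assembly list 0 had an unadjusted p under 0.05, against 13% of all genes. In the 12 translation factors the median was -0.10, with 3 positive and 9 negative. Tufm, the elongation factor that brings aminoacyl-tRNA, had 5.66, 5.64 and 5.95 in the Nrg-1β1 libraries and 5.51, 5.25 and 4.27 in the vehicle libraries, without overlap, a difference of 0.74 (limma adjusted p = 0.493). Mtrf1l, a release factor, differed by -0.76, also without overlap, on 1, 1 and 3 reads in the Nrg-1β1 libraries. In the 22 genes listed for mitochondrial aminoacyl-tRNA synthesis the median was 0.05. That list also held the amidotransferase genes Qrsl1, Gatb and Gatc, and Gars and Kars, which serve the cytosol as well. Hars2 and Cars2, which charge tRNA with histidine and cysteine, differed by 0.75 and 0.88 (limma adjusted p = 0.415 and 0.453).

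Assembly and ribosomal RNA modification genes had a median of -0.24 over 24 measured members, with 9 positive and 15 negative, and 3 of them (12.5%, near the 13% of all genes) had an unadjusted p under 0.05, all lower in Nrg-1β1. Mterf4, which brings an RNA methyltransferase to the large subunit, had 2, 5 and 12 reads in the Nrg-1β1 libraries and 724, 20 and 991 reads in the vehicle libraries. The groups did not overlap, and its difference was -1.18 (limma adjusted p = 0.242). Mterf3, a factor in large subunit assembly, had 0, 1 and 5 reads in the Nrg-1β1 libraries and 397, 5 and 425 reads in the vehicle libraries, with a difference of -1.51 (limma adjusted p = 0.265). Mettl15, a methyltransferase of the small subunit RNA, had 0, 0 and 3 reads in the Nrg-1β1 libraries and 176, 3 and 206 reads in the vehicle libraries, with a difference of -1.31 (limma adjusted p = 0.312). In Mterf3 and Mettl15 the groups did not overlap, and a library without a read sits at the bottom of the scale.

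The 13 genes of mitochondrial transcription and RNA processing had a median of -0.29, with 3 positive and 10 negative. Tfam, which packs and activates mitochondrial DNA, differed by -0.15 (95% interval -0.88 to 0.58), and Polrmt, the mitochondrial RNA polymerase, by -0.26. Slirp, which stabilises mitochondrial messenger RNA, and Trmt10c, a subunit of the enzyme that trims tRNA 5′ ends, differed by -1.22 and -0.71 without passing (limma adjusted p = 0.434 and 0.6).

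Set beside the families that work with them, the mitoribosomal genes had the smallest median difference. The 84 genes of the cytosolic ribosome had a median of 0.77, with 70 positive and 5 passing as higher, where 0.438% of all genes did. Their library medians were 6.78, 7.32 and 7.87 in the Nrg-1β1 libraries and 6.90, 7.11 and 5.56 in the vehicle libraries. The groups overlapped, and vehicle library 3 was the lowest. The 100 nuclear genes of the respiratory chain and ATP synthase had a median of 0.32, with 71 positive and 5 passing as higher. Their library medians were 6.56, 6.92 and 7.26 in the Nrg-1β1 libraries and 7.23, 6.40 and 5.96 in the vehicle libraries, also with overlap and with vehicle library 3 lowest. The 77 mitoribosomal genes had a median of 0.01, with 40 positive and 0 passing. The differences between these families were not tested.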

How the data were processed

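RNA-seq was analysed from the authors' deposited table of 27102 genes, of which 6779 were blank in all libraries. Its values are on a log2 scale. They were read as log2(normalized count + 4), because after unlogging and subtracting 4 100% of the values came out as whole reads times a factor of the library (tolerance 0.02 of a read, largest deviation 0.0094). A single read is worth 5.17, 5.11 and 3.04 normalized counts in the Nrg-1β1 libraries and 0.0605, 3.09 and 0.0605 in the vehicle libraries. Read copies were not told apart by molecular identifiers. Per the submitters' processing notes the tools were Trimmomatic and Bowtie2. Tool versions, build, counter, strand setting and normalization were not given in the sources used here. Overlapping and antisense genes and pseudogene copies (RefSeq lists some for Mrpl48, Mrpl51, Mrpl23 and Mrps36) could therefore share reads. All p-values come from limma 3.58.1 in R 4.3.3 with an intensity trend on the deposited log2 values, group as the only term, checked on simulated data. The members and lists were chosen with earlier results of these data known. Well-read genes have a mean of at least 50 normalized counts. Named genes were, per name class, the 4 most positive and 4 most negative well-read genes, the 3 highest and 2 lowest by mean log2 level, a fixed set of genes placed by role, and the 2 smallest p of each of 4 related lists. Mrpl33, Mrpl24, Mrpl16, Mrps28, Mrps5, Mettl15, Mrpl46, Mrps11 and Mrps12 were added after their values were seen. Transcript and coding lengths came from GENCODE and promoters from RefSeq GRCm38.p6. The values gave no sign that replicate numbers pair the libraries. Deviations of libraries with the same number had correlations of -0.13, 0 and -0.18 over genes, against -0.03 to 0.16 for unlike numbers. With 3 libraries per group these correlations cannot decide whether a pairing existed. No protein sequences were used here.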

Additional observations from a re-analysis of the deposited data

How the results depend on the processing

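Of 17 settings, 3 of them chosen after seeing the data, 7 called 0 genes among all genes, so their 0 among Mrpl and Mrps genes says nothing about stability. Of the 10 settings with any call, 9 called 0 Mrpl and Mrps genes. With the replicate number as a block, 1 Mrpl gene passed, Mrpl52 (1.58, limma adjusted p = 0.0105), although the values gave no sign that these numbers pair the libraries. Under all 17 settings the difference of Mrpl52 stayed between 1.14 and 2.04 (adjusted p 0.0105 to 0.767), that of Mrpl48 between 0.61 and 2.00 (0.0937 to 0.799), and, under the 15 settings that kept them, those of Mrpl33 between -1.48 and -0.58 (0.072 to 0.871) and Mrps18c between 0.64 and 1.56 (0.302 to 0.86). The median of Mrps genes was -0.20 among genes with at least 50 normalized counts, where 27 of the 77 remained, and that of Mrpl genes was 0.37 when vehicle library 3 was alone in its group. Leaving out 1 library gave medians of -0.16 to 0.19 for Mrpl and -0.07 to 0.27 for Mrps genes. A library left alone in its group is assumed to vary like the others.

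The count over all genes, 89 higher and 127 lower, was less stable. It was 49 and 80 with a pseudocount of 1, 11 and 38 among genes with at least 50 normalized counts, 12 and 53 with quantile normalization, 1 and 0 with limma-voom on recovered reads, 285 and 342 with the replicate block, 153 and 289 after a transcript length trend was subtracted, and 0 and 0 with read depth class as a term, without vehicle libraries 1 and 3, or without vehicle libraries 1 and 2. Leaving out 1 library gave 0 to 15 higher and 0 to 41 lower genes. The cause was not tested.

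Signs turned in 38 cases for genes named in the text, none of them past the threshold. With vehicle library 2 alone, and equally when depth class was a term, these were Mrpl49 (0.18), Mrps15 (-0.25), Mrps24 (0.17), Mrps23 (0.07) and Mrps18a (0.23). With vehicle library 3 alone they were Mrpl10 (0.33), Mrpl51 (0.40), Mrps7 (0.04), Mrps6 (0.13), Mrps18b (-0.33), Gadd45gip1 (0.26), Tfam (0.17) and Mrpl46 (0.21). When 1 library was left out, the differences that turned for at least 1 library ranged over -0.38 to 0.05 for Mrpl10, -0.39 to 0.19 for Mrpl51, -0.25 to 0.08 for Mrpl49, -0.08 to 0.35 for Mrpl17, -0.01 to 0.63 for Mrpl22, -0.65 to 0.11 for Mrpl46, -0.39 to 0.80 for Mrps15, -0.82 to 0.04 for Mrps24, -0.73 to 0.17 for Mrps23, -0.04 to 1.00 for Mrps17, -0.36 to 0.56 for Mrps18b, -0.53 to 0.04 for Mrps18a, -1.70 to 0.12 for Chchd1, -0.01 to 0.53 for Aurkaip1 and -0.56 to 0.18 for Polrmt.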
